A study of Rattus norvegicus with 8 samples.

Results

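The genes described here encode oxidative phosphorylation, the mitochondrial pathway that passes electrons from NADH and succinate to oxygen and uses the resulting proton gradient to make ATP. They were taken by gene symbol: every gene of the array annotation whose symbol starts with Nduf, with Sdh followed by a to d, with Uqcr, with Cox followed directly by a digit from 4 to 8, or with Atp5. This gave 86 of 16633 genes, read by 440 of 213067 probe sets. Of the 86, 75 are structural subunits, 8 are assembly factors or genes whose product is no subunit, and 3 are pseudogene copies by their own or their RefSeq symbol. For one of the 3, Ndufa13-ps, RefSeq gives the symbol Ndufa13, and it was kept apart here as the array annotation has it. The subunits comprise 36 of complex I, 4 of complex II, 7 of complex III, 14 of complex IV and 14 of complex V. The rule uses symbols and no measured value, but it was chosen with earlier results of these data known.

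Expression was measured in whole retina of male Brown Norway rats aged 8 weeks. Retinas were taken 4 hours after the procedure from rats given transcorneal electrical stimulation (TES), a current applied to the eye through the cornea, and from sham-treated rats, which the labels call TES Control. Each group has 4 samples, each on its own Affymetrix Rat Gene 1.0 ST array, and the series text speaks of 4 animals without tying arrays to them. A p-value here therefore speaks of the spread among the arrays, part of which may be technical. Values are log2 GC-RMA signals averaged over the probe sets of a gene. All differences are TES minus sham on the log2 scale, and errors are SDs over 4 arrays.

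Complex I takes electrons from NADH and complex II from succinate, complex III passes them on to cytochrome c, complex IV hands them to oxygen, and complex V is the ATP synthase. Most of the subunits are encoded in the nucleus and imported, while a small core is encoded in mitochondrial DNA and is not analysed here. The retina is among the tissues that use most oxygen for their weight, and the inner segments of photoreceptors are packed with mitochondria. In a whole retina, fewer cells of a type and less RNA per cell cannot be told apart.

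No oxidative phosphorylation gene passed an adjusted p of 0.05 in limma with Benjamini-Hochberg adjustment over all genes (0 of 86, against 0.0% of all genes), and the smallest adjusted p among them was 0.843. At an unadjusted p under 0.05 there were 6 genes (6.98%), against 5.57% of all 16633 genes, so the share was near the background. The 6 were Ndufa10, Ndufaf2 and Cox6c1 with higher means after TES (2.35% of all genes) and Ndufb4, Ndufa8 and Cox7b with lower means (3.22% of all genes). Requiring also at least 1.2 fold, as the series text does for its own test, left Ndufb4 and Ndufaf2 (3.59% of all genes). The 2 groups did not overlap in 1 gene, Ndufa8 (3.31% of all genes in either direction, 1.98% with lower values after TES). Leaving out an array gave 2 genes at the unadjusted p without TES 4 or sham 1, 3 without TES 2, sham 3 or sham 4, 4 without TES 1 or sham 2, and 5 without TES 3. Of all genes, 5.21% to 5.89% were at that p with an array left out. With the fold minimum as well, there were 5 without TES 3, 4 without TES 1 or sham 2, and 1 without sham 1. The share of all genes with the fold minimum was taken only with all arrays (3.59%). With an array left out, 2 to 6 genes had groups that did not overlap (6 without TES 3), except that the count stayed at 1 without sham 1. In these settings 5.61% to 6.60% of all genes did not overlap (5.83% without TES 3).

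The differences were small and of both signs. Of the 86 genes, 37 had higher and 49 lower means after TES (57.0% lower, against 54.9% of all genes), and their median difference was -0.02, against -0.01 over all genes. With each array centred on its median, 50 were higher and 36 lower (41.9% lower, against 41.9% of all genes). The median moved to 0.02 for these genes and to 0.02 over all genes. The balance also rested on single arrays. Of the 86, 63 were lower without sham 2 (73.3%, against 57.7% of all genes). Without TES 3, 59 were lower (68.6%, against 55.8%), and without TES 4, 41 (47.7%, against 53.7%). The 95% interval of the difference lay within 1.5 fold either way for 79 of the 86 genes (91.9%, against 94.4% of all genes) and within 1.2 fold for 32 (37.2%, against 25.9%). The 7 with wider reach were Ndufb4, Ndufb3, Ndufa1, Ndufa3, Ndufa13, Ndufa13-ps and Atp5j. The SE of the difference had a median of 0.099 for these genes and 0.107 over all genes.

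**Figure D1:**
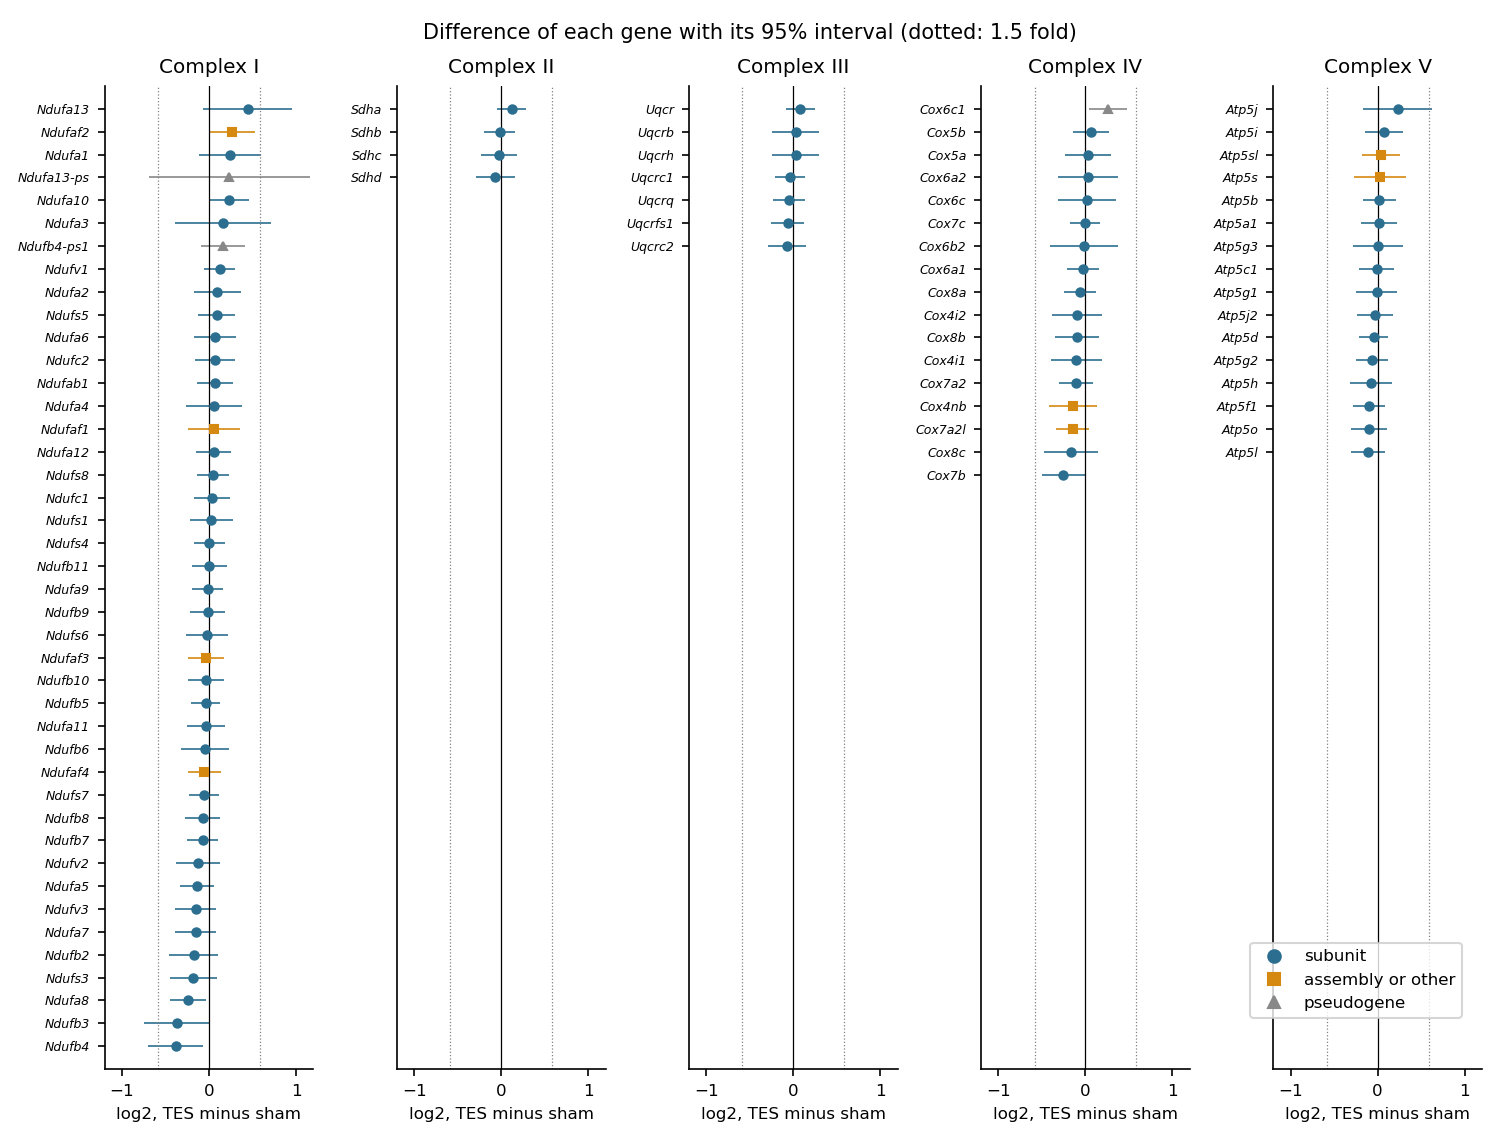
Difference in mean log2 signal, TES minus sham, for each of the 86 genes, one panel per complex by symbol. Points are the differences over 4 TES and 4 sham arrays, bars are 95% intervals from limma and dotted lines mark 1.5 fold, and 79 of the 86 intervals lie within those lines.

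A feature outside the rule is the sequence before these genes. RefSeq gives a window of 250 bases before to 50 bases after the gene start (build GRCr8) for 74 of the 83 genes that are no pseudogene. NRF1, members of the ETS family such as GABP, and YY1 are transcription factors known for binding near genes of the respiratory chain. A core of the NRF1 motif, GCGC followed by any base and then TGCGC, stood on either strand in 15 of the 74 windows (20.3%), against 4.25% of all 33469 windows of that length. The ETS core CCGGAAG stood in 22 (29.7%, against 8.75%), and AAGATGGCG, a YY1 motif, in 10 (13.5%, against 1.73%). At least 1 of the 3 was found in 41 windows (55.4%, against 13.4%). These matches are letters in a window, not binding sites. The 33469 windows are all that RefSeq gives, more than the 16633 genes of the array, and were not matched to the 74 by kind of gene. The median difference after TES was -0.04 for the 15 genes with the NRF1 letters and -0.02 for the other 59, and 0.02 for the 22 with the ETS letters and -0.03 for the other 52.

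The stretches shown here end before the gene start and carry these letters in genes described below, 3 with the NRF1 and 3 with the ETS core. Each is read 5′ to 3′ along the gene, capitals mark the motif, and 25 bases flank it on each side.
Sdha, chr1:30764439-30764498, plus strand, NRF1 core on the reverse strand: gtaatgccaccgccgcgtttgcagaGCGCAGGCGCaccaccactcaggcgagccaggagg
Ndufv3, chr20:9613722-9613781, plus strand, NRF1 core on the reverse strand: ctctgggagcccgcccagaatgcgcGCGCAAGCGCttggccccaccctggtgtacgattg
Atp5g2, chr7:135678240-135678299, minus strand, NRF1 core: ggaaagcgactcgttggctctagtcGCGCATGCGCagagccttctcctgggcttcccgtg
Cox7a2, chr8:89601161-89601217, minus strand, ETS core on the reverse strand: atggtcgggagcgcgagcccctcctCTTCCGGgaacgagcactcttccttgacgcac
Sdhd, chr8:59850658-59850714, minus strand, ETS core on the reverse strand: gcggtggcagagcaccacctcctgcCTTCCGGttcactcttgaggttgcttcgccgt
Atp5j, chr11:37375154-37375210, minus strand, ETS core: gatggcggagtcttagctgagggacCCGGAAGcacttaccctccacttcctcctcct
In the stretch of Sdha the motif starts 89 bases before the gene start, and a second NRF1 core starts 46 bases before it. Sdha had the higher mean after TES and Ndufv3 and Atp5g2 the lower, and none of the 3 passed the test.

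Complex I is an L-shaped enzyme whose arm in the matrix oxidises NADH and whose arm in the membrane pumps protons. Of its 36 subunits 17 had higher and 19 lower means after TES, with a median difference of -0.02 (0.02 with arrays centred on their median). Among the 6 nuclear core subunits measured, most of which hold the flavin or iron-sulphur clusters, 3 were higher and 3 lower. Ndufv1, which binds the flavin and meets NADH, stood at 8.26, 8.28, 8.33 and 8.29 on TES arrays 1 to 4, against 8.10, 8.08, 8.27 and 8.23 on sham arrays 1 to 4. Its TES values lay close together, and only TES 1 fell among the sham values. The difference was 0.12 (95% interval -0.05 to 0.30, limma adjusted p 0.927), and it was -0.04 by its brightest probe set. With the median signal of its probe sets on each array it was -0.05, while the median of its single probe set differences was 0.06. Ndufs3, a core subunit of the matrix arm, averaged 6.51 ± 0.20 after TES and 6.69 ± 0.18 after sham, and its difference was -0.18 (95% interval -0.44 to 0.09).

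The accessory subunits surround this core. Divided by symbol after the values had been seen, 8 of 13 Ndufa subunits had higher and 5 lower means after TES, while 1 of 10 Ndufb subunits, which sit in the membrane arm, was higher and 9 were lower. With arrays centred on their median, 7 of the 10 Ndufb genes were lower (41.9% of all genes). With the median signal of their probe sets on each array, 6 were lower (53.2% of all genes). The median difference of the 10 was -0.06, and it was -0.02 with arrays centred on their median. Their single differences ran from -0.38 for Ndufb4 to 0.0032 for Ndufb11, and 1 of the 10, Ndufb4, had an unadjusted p under 0.05.

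Ndufb4 stood at 4.96, 4.76, 5.13 and 4.79 on TES arrays 1 to 4, against 5.49, 4.97, 5.60 and 5.11 on sham arrays 1 to 4. The groups overlapped, since sham 2 and sham 4 fell below TES 3. The difference was -0.38 (95% interval -0.70 to -0.06, limma adjusted p 0.843). The gene rests on 1 probe set, and a pseudogene copy, Ndufb4-ps1, is also on the array at 3.36 ± 0.10 after TES and 3.19 ± 0.23 after sham. Whether the probes tell the copies apart is not known here. Ndufb3, another membrane arm subunit, stood at 5.63, 5.03, 5.19 and 5.72 on TES arrays 1 to 4, against 5.70, 6.09, 5.45 and 5.82 on sham arrays 1 to 4. TES 2 and TES 3 were lowest, and TES 1 and TES 4 lay within the sham range. Its difference of -0.37 had a 95% interval from -0.75 to 0.0070 (limma adjusted p 0.883), and 1 of its 3 probe sets differed by -0.97. Ndufb2, also of this arm, averaged 4.11 ± 0.23 after TES and 4.28 ± 0.18 after sham, with lower means in 4 of 4 probe sets.

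Ndufa8, an accessory subunit on the intermembrane side of complex I, stood at 6.83, 6.81, 6.72 and 6.64 on TES arrays 1 to 4, against 6.84, 7.11, 6.89 and 7.12 on sham arrays 1 to 4. All TES values lay below all sham values, TES 1 by a narrow margin below sham 1. The difference was -0.24 (95% interval -0.45 to -0.03, limma adjusted p 0.843), a mean of 6 probe sets that did not move alike. The 3 probe sets of highest signal differed by -0.02, 0.03 and -0.04, and the other 3 by -0.24, -0.71 and -0.44. The probe set at -0.71 stood at a mean of 2.59 after TES and 3.30 after sham, close to the level of olfactory receptor genes, which serve here as a guide to low signal (95th percentile 3.10 over 1100 genes). Taking its brightest probe set instead of the average, Ndufa8 differed by 0.03.

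Ndufa10, an accessory subunit that binds complex I from the matrix side, stood at 9.88, 9.69, 10.12 and 9.83 on TES arrays 1 to 4, against 9.67, 9.51, 9.70 and 9.72 on sham arrays 1 to 4. Only TES 2 fell within the sham range. The difference was 0.23 (95% interval 0.0032 to 0.46, limma adjusted p 0.883), and 0.15 without TES 3, and the gene rests on 1 probe set. Ndufa13, known also as GRIM-19, had the largest positive difference of the 86, 0.44, but its signal of 2.28 ± 0.56 after TES and 1.84 ± 0.24 after sham was below the guide to low signal, and TES 4 stood highest at 3.05. Without TES 4 the difference was 0.19. Ndufa13 too rests on 1 probe set.

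The other accessory subunits named by rank of p had intervals that included 0. Ndufa1, a small membrane subunit, averaged 5.64 ± 0.30 after TES and 5.40 ± 0.26 after sham. Its difference of 0.24 was 0.12 without TES 3 and 0.14 without sham 2, and its brightest probe set differed by -0.10. Ndufa5, of the matrix arm, averaged 6.07 ± 0.04 and 6.21 ± 0.13 in the same order, with 4 of 5 probe sets lower. Ndufa7 averaged 7.38 ± 0.14 after TES and 7.53 ± 0.16 after sham with 4 of 4 probe sets lower. Ndufv3 averaged 7.48 ± 0.18 after TES and 7.63 ± 0.11 after sham. The limma adjusted p of these 4 ran from 0.923 to 0.935. Ndufa4, once assigned to complex I and now counted with complex IV, averaged 9.49 ± 0.30 after TES and 9.43 ± 0.17 after sham.

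**Figure D2:**
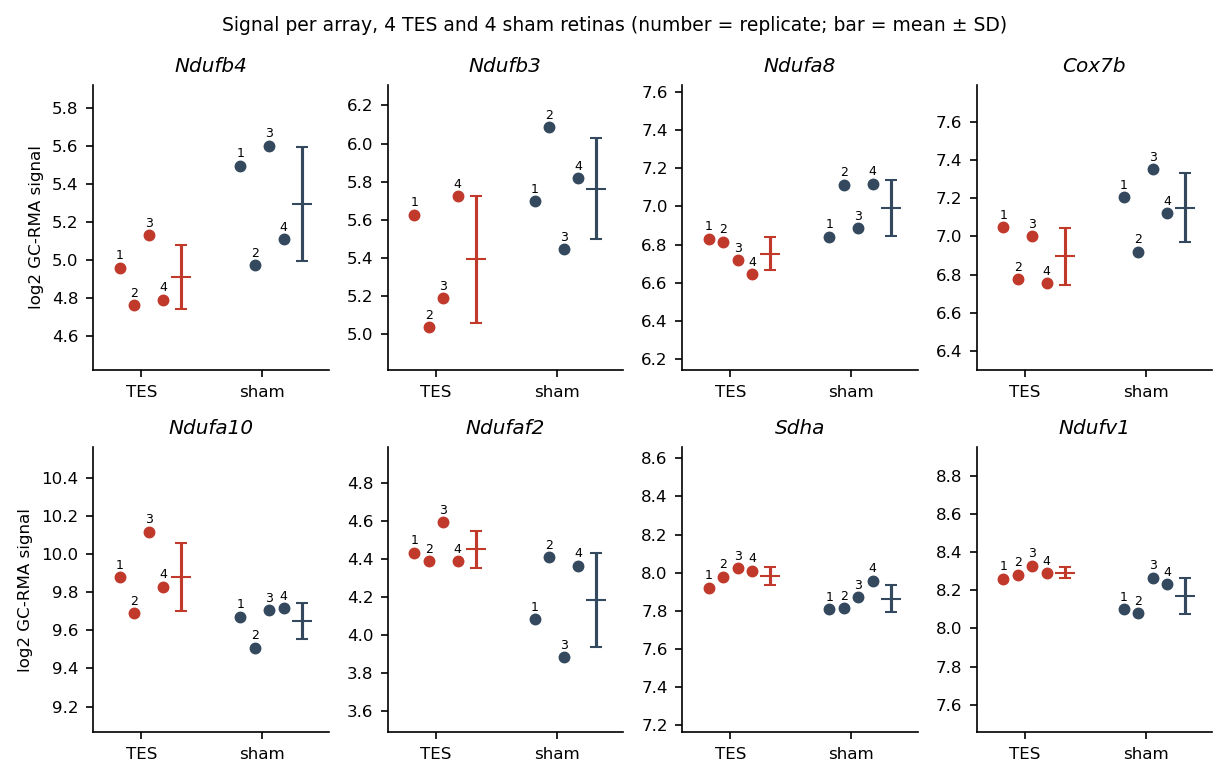
Log2 GC-RMA signal of 8 genes on each TES array (left, red) and each sham array (right, dark), with numbers for replicates and bars for mean ± SD; every panel spans the same height. Ndufb4, Ndufb3, Ndufa8 and Cox7b have lower means and Ndufa10, Ndufaf2, Sdha and Ndufv1 higher means after TES, and only in Ndufa8 do the groups not overlap.

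Complex II, succinate dehydrogenase, belongs to both the citric acid cycle and the respiratory chain, and all of its 4 subunits were measured. Sdha, the flavoprotein that oxidises succinate, stood at 7.92, 7.98, 8.02 and 8.01 on TES arrays 1 to 4, against 7.81, 7.81, 7.87 and 7.96 on sham arrays 1 to 4. Only TES 1 lay below a sham value, that of sham 4. The difference was 0.12 (95% interval -0.05 to 0.29, limma adjusted p 0.925), and it was -0.02 by its brightest probe set. The iron-sulphur subunit Sdhb and the membrane anchors Sdhc and Sdhd differed by -0.02, -0.02 and -0.07. Their 95% intervals ran from -0.19 to 0.16, from -0.23 to 0.19 and from -0.29 to 0.15. With the median signal of the probe sets on each array, the 3 took the other sign (0.03 for Sdhb, 0.05 for Sdhc and 0.10 for Sdhd). The medians of their single probe set differences kept the sign (-0.0065 for Sdhb, -0.01 for Sdhc and -0.18 for Sdhd).

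Complex III, the cytochrome bc1 complex, showed the narrowest set of differences, from -0.07 to 0.08, with 3 of 7 subunits higher and 4 lower after TES. Uqcr, the small subunit now called Uqcr11, had the smallest p of them with 7.75, 7.75, 7.84 and 7.81 on TES arrays 1 to 4, against 7.64, 7.75, 7.75 and 7.69 on sham arrays 1 to 4. The difference of 0.08 had a 95% interval from -0.09 to 0.25 (limma adjusted p 0.963). The core proteins Uqcrc1 and Uqcrc2 differed by -0.04 and -0.07, and Uqcrfs1, the Rieske iron-sulphur protein, by -0.07.

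Complex IV, cytochrome c oxidase, had 4 subunits with higher and 10 with lower means after TES and a median difference of -0.05. With arrays centred on their median, 7 of its 14 subunits were lower, against 41.9% of all genes. Cox7b, a small nuclear-encoded subunit, stood at 7.05, 6.77, 7.00 and 6.76 on TES arrays 1 to 4, against 7.21, 6.92, 7.35 and 7.12 on sham arrays 1 to 4. TES 1 and TES 3 lay above sham 2 and below the other sham arrays. The difference was -0.26 (95% interval -0.50 to -0.0093, limma adjusted p 0.882). Its 3 probe sets differed by -0.50, -0.34 and 0.08, and in the first of them the groups did not overlap (2.82% of all probe sets).

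Several subunits of complex IV come as pairs of a widely used form and a form of particular tissues, and none of these pairs showed a difference past the spread between arrays. Cox4i1, the general form of subunit 4, averaged 8.44 ± 0.29 after TES and 8.54 ± 0.10 after sham, with TES 4 at 8.02 and the other 7 arrays between 8.40 and 8.67. Without TES 4 its difference of -0.11 became 0.03. Cox4i2, the form known from lung and from low oxygen, averaged 6.19 ± 0.16 after TES and 6.28 ± 0.25 after sham. Cox6a1, the general form, averaged 9.60 ± 0.10 and 9.63 ± 0.04, and Cox6a2, the heart and muscle form, averaged 3.54 ± 0.26 and 3.51 ± 0.28, TES before sham in both.

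Cox7a2 averaged 9.93 ± 0.10 after TES and 10.04 ± 0.11 after sham. The difference was -0.11 (95% interval -0.30 to 0.09), with 4 of 4 probe sets lower, and -0.07 without TES 1 or without sham 3. Cox8a, the general form of subunit 8, averaged 11.31 ± 0.11 after TES and 11.38 ± 0.06 after sham. The muscle form Cox8b averaged 3.28 ± 0.19 after TES and 3.38 ± 0.15 after sham. The testis forms Cox6b2 and Cox8c averaged 3.49 ± 0.26 and 2.76 ± 0.29 after TES, against 3.50 ± 0.37 and 2.93 ± 0.18 after sham, and Cox8c lay at or below the guide to low signal. Levels of different genes come from different probes and were not set against each other.

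Complex V, the ATP synthase, had 5 of 14 subunits with higher and 9 with lower means after TES and a median difference of -0.02 (0.01 with arrays centred on their median). The F1 part of the enzyme gave the tightest values. Its alpha, beta, gamma and delta subunits Atp5a1, Atp5b, Atp5c1 and Atp5d differed by 0.01, 0.02, -0.01 and -0.05. All 4 intervals lay within 1.2 fold. The c ring of the rotor is encoded by Atp5g1, Atp5g2 and Atp5g3, whose mature products are the same protein. They differed by -0.01, -0.07 and 0.0078, with 95% intervals from -0.25 to 0.23, from -0.25 to 0.12 and from -0.28 to 0.29.

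Atp5j, coupling factor 6 of the stalk, had the smallest p of complex V with 7.38, 7.42, 7.64 and 7.44 on TES arrays 1 to 4, against 7.45, 6.65, 7.19 and 7.68 on sham arrays 1 to 4. The TES values lay inside the sham range, which sham 2 widened downwards. The difference was 0.23 (95% interval -0.17 to 0.63, limma adjusted p 0.950), higher in 2 of 2 probe sets, and it was 0.03 without sham 2 and 0.38 without sham 4.

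Of the 8 genes that are no structural subunit, 4 had higher and 4 lower means after TES. Ndufaf2, a factor that helps assemble complex I, stood at 4.43, 4.39, 4.59 and 4.39 on TES arrays 1 to 4, against 4.08, 4.41, 3.89 and 4.36 on sham arrays 1 to 4. The TES arrays lay close together, while sham 1 and sham 3 were low and sham 2 and sham 4 near the TES values. The difference was 0.27 (95% interval 0.0018 to 0.53, limma adjusted p 0.883), and 0.17 without sham 3. Cox7a2l, which helps join complexes III and IV into a supercomplex, stood at 9.08, 9.18, 9.22 and 9.12 on TES arrays 1 to 4, against 9.22, 9.20, 9.38 and 9.40 on sham arrays 1 to 4. Its difference of -0.15 (95% interval -0.33 to 0.04, limma adjusted p 0.920) was lower in 3 of 3 probe sets. The pseudogene copy Cox6c1, for which RefSeq gives Cox6c-ps1, averaged 2.28 ± 0.16 after TES and 2.02 ± 0.11 after sham, at the level of olfactory receptor genes. Ndufa13-ps was at that level too and had the widest interval of the 86 (-0.69 to 1.16).

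Single probe sets were tested in a fit of their own over all 213067. None of the 440 passed an adjusted p of 0.05 (0.0% of all probe sets), with a smallest adjusted p of 0.902, and 8 (1.82%) had an unadjusted p under 0.05, against 5.13% of all probe sets. The 8 lay in 7 genes, 4 with higher means after TES (2 of Ndufv1, 1 of Sdha and 1 of Cox6c1) and 4 with lower means (1 each of Ndufa8, Cox7b, Ndufb8 and Cox4nb). The groups did not overlap in 8 of the 440 (1.82%, against 2.82% of all probe sets), 2 with higher and 6 with lower values after TES. Probe sets of a gene share its RNA and are not replicates. Of the 80 genes with several probe sets, 61 had probe sets of both signs, 13 had all of them lower and 6 all higher after TES. Ndufv2, the iron-sulphur subunit beside Ndufv1, was lower in 8 of 8, and Ndufs5 higher in 6 of 6.

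The probe set of Sdha with the largest difference stood at 2.66, 3.23, 3.09 and 3.63 on TES arrays 1 to 4, against 1.88, 2.32, 2.71 and 2.06 on sham arrays 1 to 4. TES 1 fell just below sham 3, and the difference was 0.91 (limma adjusted p 0.925). Averaging 2.70 over the 8 arrays, it is the dimmest probe set of Sdha and lies below the guide to low signal. The median of the differences of the 17 probe sets of Sdha was 0.12, the same as the average of the gene. The larger of the 2 in Ndufv1 stood at 5.76, 5.39, 5.77 and 5.23 on TES arrays 1 to 4, against 4.73, 3.98, 5.25 and 5.12 on sham arrays 1 to 4, where sham 2 was lowest.

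**Figure D3:**
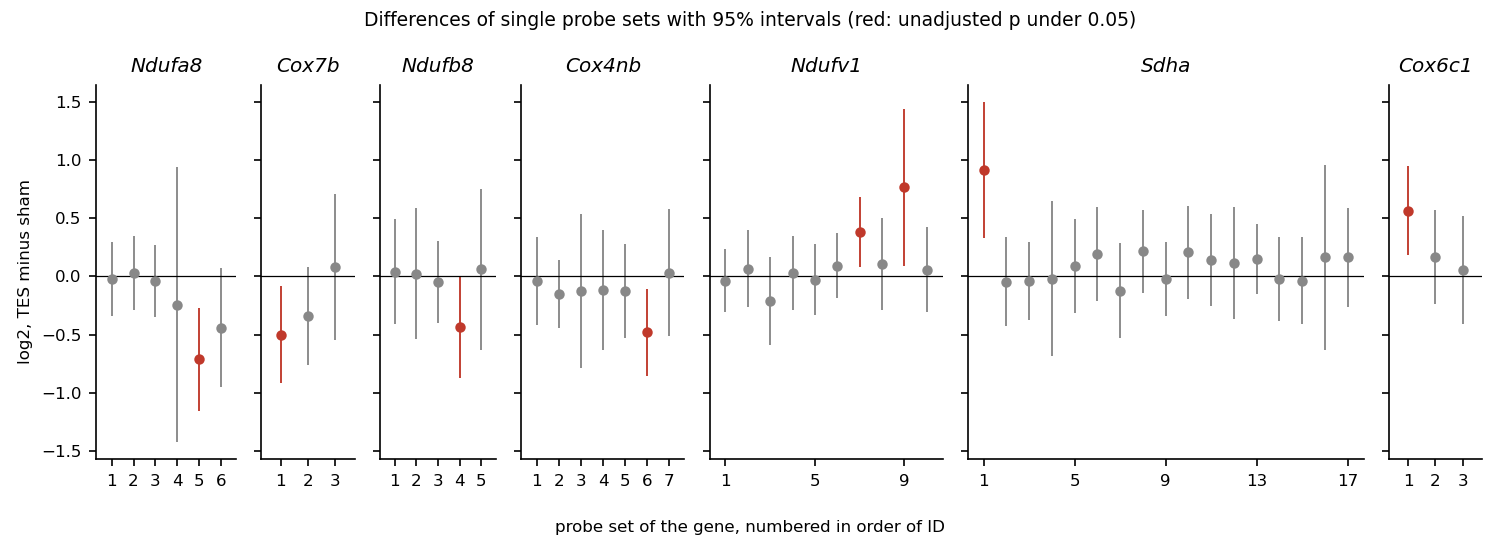
Difference in log2 signal, TES minus sham, for every probe set of the 7 genes that hold a probe set with an unadjusted p under 0.05 (red), with 95% intervals and probe sets numbered in the order of their IDs. Ndufa8 has 3 probe sets near 0 and 3 below, and Cox7b has 2 below 0 and 1 above.

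The mean level of the subunits varied more among the arrays of a group than between the groups. As a mean over the 75 subunits, the deviation from each gene's own mean was 0.08 on TES 3, -0.0036 on TES 1, -0.06 on TES 2 and -0.06 on TES 4, against 0.07 on sham 3, 0.06 on sham 4, -0.0098 on sham 1 and -0.08 on sham 2. High and low arrays thus occurred in both groups, and the group means were -0.01 ± 0.07 after TES and 0.01 ± 0.07 after sham. Of the 75 subunits 60 stood above their own mean on TES 3 and 57 on sham 3, against 20 on TES 4 and 20 on sham 2, while 46.6% to 52.7% of all genes did so on these 4 arrays. TES 3 was the highest array for 22 subunits (29.3%, against 11.0% of all genes) and TES 4 the lowest for 22 (29.3%, against 16.4%). Likewise sham 3 was the highest for 21 (28.0%, against 12.4%) and sham 2 the lowest for 19 (25.3%, against 18.4%). On TES 2, 24 subunits stood above their own mean, against 45.7% of all genes.

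Centring each array on its median left the order of these 4 arrays, with 0.07 on TES 3 and -0.03 on TES 4, against 0.05 on sham 3 and -0.06 on sham 2. Complexes I, IV and V each followed this pattern with TES 3 above 0 and TES 4 below it, and sham 3 above 0 and sham 2 below it. In complexes I and IV, however, TES 2 lay below TES 4 (-0.05 against -0.01, and -0.05 against -0.02). In complex IV so did TES 1 (-0.024 against -0.016). Over all subunits sham 1 was as low as TES 4 after centring (-0.033 against -0.031). Sham 1 stood at -0.048 in complex I and at -0.025 in complex IV. After the same centring complex II, with 4 genes, was at 0.0038 on TES 3 and 0.02 on TES 4, and complex III was below 0 on sham 3 (-0.04). What underlies the differences among the arrays was not tested.

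**Figure D4:**
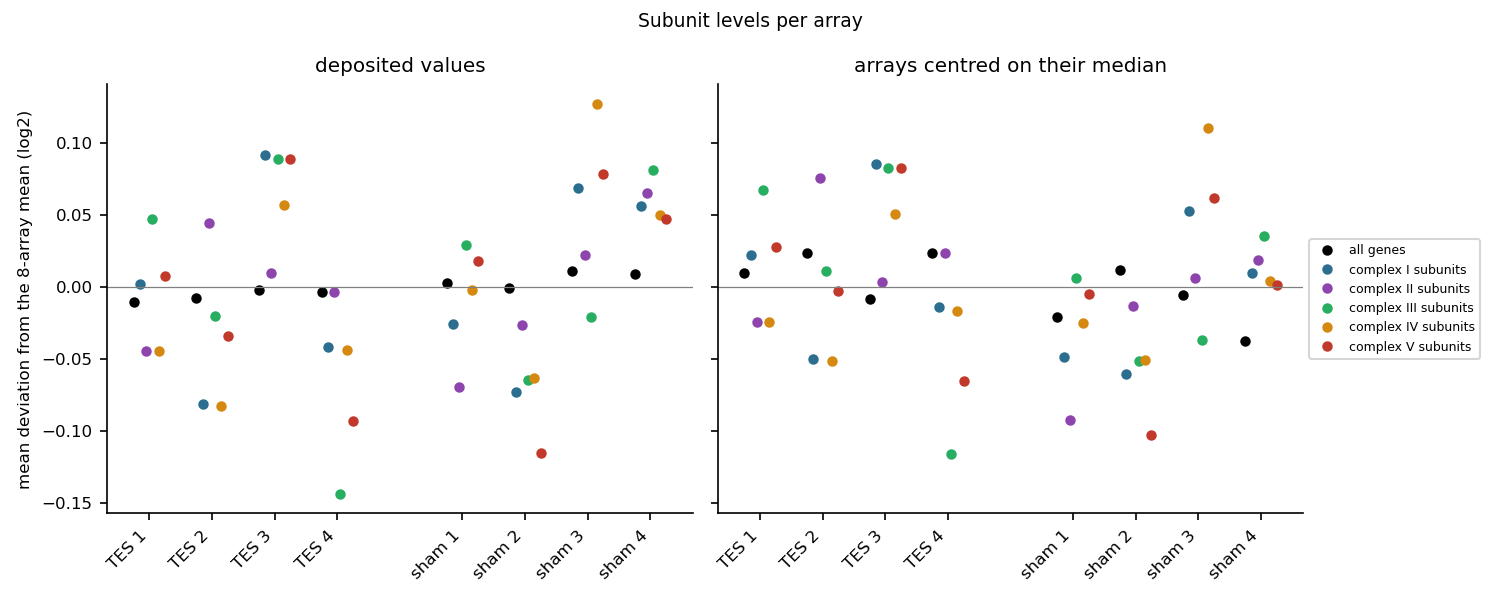
Mean deviation of the subunits of each complex, and of all genes (black), from each gene's mean over 8 arrays, in log2 units, for TES arrays (left in each panel) and sham arrays (right), as deposited and with arrays centred on their median. For complexes I and V, TES 3 and sham 3 lie above 0 and TES 4 and sham 2 below it, so that arrays of both groups lie on either side. For complex I the lowest TES array is TES 2, at -0.08 as deposited and -0.05 with arrays centred.

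Other mitochondrial genes were described by lists. Cytochrome c and respiratory chain assembly factors had 11 of 23 genes with higher and 12 with lower means after TES. Their median difference was -0.0058. With arrays centred on their median, where 41.9% of all genes were lower, 16 of the 23 were higher and 7 lower. None had an unadjusted p under 0.05. Atpif1, the inhibitor of the ATP synthase, averaged 7.50 ± 0.18 after TES and 7.74 ± 0.13 after sham, and Cox17, a copper chaperone of complex IV, averaged 6.25 ± 0.05 and 6.06 ± 0.16 in the same order. Regulators of mitochondrial gene expression had 10 of 18 higher and 8 lower, and 2 (11.1%) had an unadjusted p under 0.05, both lower (5.57% of all genes in either direction, 3.22% lower). Tfam, which packs and transcribes mitochondrial DNA, averaged 4.75 ± 0.20 after TES and 5.05 ± 0.20 after sham, and the coactivator gene Ppargc1b averaged 7.13 ± 0.10 and 7.32 ± 0.09. Their differences of -0.30 and -0.20 had limma adjusted p of 0.869 and 0.882.

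Pyruvate dehydrogenase and citric acid cycle genes had 7 of 15 higher and 8 lower means after TES. With arrays centred on their median, where 41.9% of all genes were lower, 11 were higher and 4 lower. Carriers and pores had 7 of 15 higher and 8 lower, and coenzyme Q synthesis 6 of 11 higher and 5 lower. These 3 lists held 0 genes at an unadjusted p under 0.05. They were led by Suclg2 (-0.28) and Pdhx (0.11), by the outer membrane pore Vdac2 (-0.11) and the uncoupling protein Ucp2 (0.12), and by Coq10b (-0.21) and Coq4 (-0.14). Genes of mitochondrial protein import and membrane shape had 9 of 19 higher and 10 lower (12 and 7 with centred arrays). Of the 19, 1 (5.26%) had an unadjusted p under 0.05, with a lower mean (3.22% of all genes). It was Timm50, a receptor of the import machinery, which averaged 6.64 ± 0.12 after TES and 6.97 ± 0.12 after sham. The difference was -0.33 (95% interval -0.54 to -0.12, limma adjusted p 0.817), and the groups did not overlap (1.98% of all genes with lower values). Timm9 differed by -0.14.

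Mitochondrial ribosomal proteins, which translate the subunits encoded in mitochondrial DNA, had 19 of 67 higher and 48 lower means after TES (71.6% lower, against 54.9% of all genes). Their median difference was -0.05, against -0.01 over all genes. With arrays centred on their median 38 of the 67 were lower, against 41.9% of all genes. The median of the 67 was then -0.02, against 0.02 over all genes. As deposited, the median was -0.09 without sham 2 (55 lower) and -0.09 without TES 3 (49 lower), but -0.04 without sham 3 (45 lower) and -0.04 without sham 4 (42 lower). In these settings 52.7% to 57.7% of all genes were lower. Of the 67, 1 with a higher and 4 with a lower mean had an unadjusted p under 0.05 (2.35% and 3.22% of all genes). Mrpl47 averaged 5.94 ± 0.19 after TES and 6.28 ± 0.20 after sham, and Mrps35 6.34 ± 0.13 and 6.61 ± 0.14, both with a limma adjusted p of 0.843.

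The tissue carried the markers of retina. The mean log2 signal over 18 rod photoreceptor genes ran from 9.43 to 9.59 on TES arrays and from 9.47 to 9.61 on sham arrays, and that of 17 inner retinal neuron genes from 7.74 to 7.86 and from 7.78 to 7.86. Of 9 lens genes, 8 had higher means after TES, from 3.87 to 5.46 on TES arrays against 3.47 to 4.81 on sham arrays, with 3 of the 9 at or below the guide to low signal (Crygc, Bfsp1 and Lim2). Their highest array was TES 3 and their lowest sham 3, both high for oxidative phosphorylation. Their median difference was 0.46 with all arrays, 0.15 without TES 3 (5 of 9 higher) and 0.30 without sham 3 (7 of 9 higher). Of the 9, 2 (22.2%) had an unadjusted p under 0.05, both higher (2.35% of all genes). These were Mip and Crygc, the latter at or below the guide. Pigment epithelium genes, 9 of 13 with lower means after TES, ran from 5.17 to 5.80 on TES arrays and from 5.50 to 5.76 on sham arrays, with Best1 and Tyr at or below the guide. Of the 13, 4 (30.8%) had an unadjusted p under 0.05, all lower (3.22% of all genes), and the median difference was -0.22 with all arrays, -0.11 without TES 1 and -0.41 without TES 2. All 6 erythrocyte genes had higher means after TES, from 4.32 to 4.61 on TES arrays against 3.93 to 4.57 on sham arrays. Alas2, Slc4a1, Eraf and Epb4.2 of them were at or below the guide, and the median difference was 0.22, or 0.13 without sham 4. The part of these tissues in the values above was not tested. Of 10 skeletal muscle genes, Myh1, Myh4, Tnni2 and Tnnc2 were at or below the guide, and their mean ran from 3.21 to 3.36 on TES arrays and from 3.06 to 3.38 on sham arrays.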

How the data were processed

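The authors deposited log2 GC-RMA signals per probe set, made in GeneSpring GX per the series text; the submitters' processing notes also name GCRMA. The base of the logarithm was taken from the values (0.549 to 13.2). No source used here gives how arrays were scaled against one another. Array medians lay between 5.32 and 5.41 and pairs of arrays had Pearson correlations of 0.9896 to 0.9945 over genes, which are not independent. Scanner files were not analysed, and the number of arrays limits the precision.

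From these values, the 172924 probe sets whose annotation (old symbols) names exactly 1 gene were averaged per gene and array, with no filter on low values. TES was compared with sham in limma 3.58.1 (lmFit and eBayes, R 4.3.3) over all 16633 genes with no covariate, with Benjamini-Hochberg adjustment, and likewise over all 213067 probe sets. The fit was tested on simulated data. SAM, which the series text names, was not run. RefSeq (GRCr8) served for current symbols, found for all 86 genes, and for promoter windows. The isoforms Cox6b1, Cox7a1, Cox8h and Ndufa4l2 are not analysed here. The members, lists and alternatives were chosen with earlier results of these data known. Named genes are the 10 of smallest p in each direction, the leader of each complex, all Sdh genes, the tissue isoforms, the c ring genes and the 2 of smallest p in each other list; genes outside this rule were chosen after their values were seen.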

Additional observations from a re-analysis of the deposited data

Results flagged for a closer look

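Among 186 sets of 4 arrays (86 genes and 7 means per group), 7 held an array that stood far from the other 3 by Dixon's test at the 95% level, where chance gives about 1 in 20. On TES arrays, Atp5h, a stalk subunit of the ATP synthase, stood at 6.689 on TES 3 with the others between 6.25 and 6.28, Cox5b at 6.463 on TES 3 with the others between 6.16 and 6.20, and Uqcrb, of complex III, at 9.389 on TES 4 with the others between 9.81 and 9.88. On sham arrays, Atp5f1 stood at 8.277 on sham 4 (others 8.09 to 8.11), Ndufb10 at 8.395 on sham 3 (others 8.26 to 8.28), Cox6b2 at 4.049 on sham 3 (others 3.27 to 3.36) and Cox6a2 at 3.087 on sham 1 (others 3.61 to 3.69). The 2 on TES 3 and the 2 on sham 3 are high values, and the one on TES 4 is low.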

How the results depend on the processing

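No gene and no probe set of oxidative phosphorylation passed an adjusted p of 0.05 in limma under any alternative run. The count at an unadjusted p under 0.05 (6, with 5.57% of all genes) was 2 with the median signal of the probe sets on each array (5.37% of all genes). It was 3 with the probe set of highest mean (5.16%) and 2 to 5 with an array left out (5.21% to 5.89%). The count at the thresholds of the series text (2) was 4 with arrays centred on their median, 1 for structural subunits alone, 1 without genes below the median signal, 0 at 1.5 fold, 0 with an unmoderated equal-variance test, and 1 to 5 with an array left out. The share of all genes at these thresholds was taken only for the main fit (3.59%). Groups did not overlap in 1 gene (3.31% of all genes), in 4 with centred arrays (3.19%), in 2 after quantile normalization (2.99%) and in 1 to 6 with an array left out (5.61% to 6.60%). The median difference (-0.0169) ran from -0.0465 to 0.0195 over all alternatives, and the count of lower genes (49) from 36 to 63. The 36 came with centred arrays (41.9% of all genes lower) and the 63 without sham 2 (57.7% of all genes lower). The replicate numbers 1 to 4 occur in both groups, but same-numbered arrays did not deviate together in every pair (correlations 0.124, 0.132, 0.0056 and -0.119) and were not treated as pairs. With the replicate block the same counts were 6, 2 and 1 and the median stayed at -0.0169; with it 6 probe sets had an unadjusted p under 0.05, against 8 without. With an array left out, 6 to 11 did. Ndufa8 changed sign by its brightest probe set (0.029). Of 36 named genes, 19 kept their sign under every alternative run. The causes were not tested.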
